A study of Bos taurus with 6 samples.

Results

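The transcripts described here encode the ubiquitin-conjugating enzymes of the UBE2 family, measured in bovine granulosa cells on two-colour expression arrays. Members were taken by symbol: every probe that the platform annotation assigns to a gene whose symbol is UBE2 followed by a letter, with UBE2C left out. The pattern met 55 probes of 30 symbols. One of these symbols, UBE2CBP, is today UBE3D, a gene that is not a conjugating enzyme, and its value is given apart. This left 54 probes of 29 genes, of 15216 genes with a symbol on the arrays. Of these, 46 probes of 28 genes passed the limit on dim signal and were tested among 27429 genes and unnamed probes. The remaining gene was UBE2O, a large enzyme that combines conjugating and ligase activity. It was above background on 1 of 6 arrays for either RNA, so its log2 ratio of 0.10 ± 0.22 (SD, n = 3) is not read as a level. Genes of the family without a named probe were not analysed here.

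Ubiquitin reaches its targets through a relay of enzymes. An activating enzyme (E1) charges ubiquitin and hands it to a cysteine of a conjugating enzyme (E2), and a ligase (E3) brings the charged E2 to the substrate or takes the ubiquitin over before passing it on. The E2 largely decides which modifier is carried and which kind of chain is built, and thereby whether a protein is degraded, relocated or used in signalling or DNA repair. Some members carry ubiquitin-like modifiers such as NEDD8 or ISG15 in place of ubiquitin.

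The cetrotide group held cells of 3 multiparous Holstein cows given cetrotide, a trade name of cetrorelix, which blocks the receptor of gonadotropin releasing hormone. The control group held cells of 3 multiparous Holstein cows without that agent. All cows had received gonadotropins, all follicles were pre-ovulatory and coasted, meaning that follicle stimulating hormone (FSH) had been withdrawn, and all cells were aspirated at ovum pick-up 68 hours after the last FSH injection. The sources used here do not give the dose of cetrotide, the age of the cows or which cow was on which array. Each of 6 arrays carried cetrotide RNA in one dye and control RNA in the other: cetrotide was in Cy5 on the 3 arrays of slide 1 and in Cy3 on the 3 arrays of slide 2. The array areas are numbered alike on the slides, and each pair of same-numbered areas was averaged into 1 of 3 dye-swap replicates, over which the SDs below are taken. All ratios are cetrotide over control on the log2 scale, where 1 is a doubling.

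Between 53.5% and 82.5% of probes per array and RNA were above background. The granulosa markers FSHR, CYP19A1, AMH and INHA were above background for both RNAs on all 6 arrays. Not all listed markers met this. NR5A1 was above background on 5 arrays for cetrotide and 4 for control RNA, AMHR2 on 4 and 5, and HSD17B1 on 5 and 6. FOXL2 and LHCGR did not pass the limit on dim signal. The 17 measured of 19 granulosa markers had a median log2 ratio of -0.61, with replicate medians of -0.36, 0.23 and -1.52. Of them, 5 were above 0, STAR highest at 3.13, and 12 were below 0. Their summed intensity per replicate ran from 79232 to 161854 for cetrotide and from 140340 to 173551 for control RNA. All 10 measured of 12 epithelial markers were above 0, with a median of 1.74, replicate medians of 0.47, 1.31 and 3.25, and summed intensities of 14669 to 174528 for cetrotide against 1932 to 14790 for control RNA. Summed theca and stroma markers (15 of 16 measured, 11 above 0) ran from 29130 to 86872 for cetrotide and from 18442 to 24543 for control RNA. Summed endothelial markers (10 of 13 measured, 9 above 0) ran from 1547 to 7266 and from 1550 to 1843, and summed leukocyte markers (13 of 14 measured, 12 above 0) from 6151 to 10407 and from 2568 to 6696, in the same order of groups. Of the markers in these lists with a probe on the arrays, 1, the leukocyte gene CSF1R, was never above background. The 21 cell cycle genes, all measured, had replicate medians of -0.12, 0.0023 and -1.25. Most markers of the other cell types were thus above 0 with cetrotide, and the granulosa and cell cycle medians were lowest in replicate 3. Their part in the UBE2 values below was not tested. In bulk RNA, fewer cells of a type and less RNA per cell cannot be told apart.

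The UBE2 genes did not move as a block. UBE2L3 had the highest mean ratio and UBE2K and UBE2B the lowest over the 3 replicates, and most other members lay close to 0 relative to their spread. Of the 28 genes, 13 were above 0 and 15 below 0, with a median log2 ratio of -0.12 and a range of -0.69 to 1.31. Over all 27429 genes and unnamed probes the median was -0.01. The share above 0 was 46.4% for the UBE2 genes and 46.8% for all. Without replicate 3 the UBE2 median was 0.015, and the replicate medians were -0.07, 0.10 and -0.06, so the median had no settled sign.

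No UBE2 gene passed the adjusted threshold of 0.05 in limma, as was so for 0% of all genes and unnamed probes. At an unadjusted threshold of 0.05 limma found 3 UBE2 genes higher with cetrotide, against 8% of all, and 3 lower, against 6.46% of all. Those higher were UBE2L3, UBE2M and UBE2E1, and those lower were UBE2D3, UBE2E2 and UBE2B. With median spot pixels, and with the authors' deposited table, 1 was higher and 2 were lower, and of the 6 genes only UBE2L3 and UBE2D3 kept an unadjusted p below 0.05. UBE2E2 was then -0.06 with median pixels and -0.07 in the authors' deposited table. Without replicate 1 the counts were 1 and 1, and without replicate 3 they were 5 and 4. For these alternatives, median pixels and the deposited table included, no share over all is given. On all 6 arrays 3 genes were above 0 (7.86% of all) and 4 were below 0 (7.41% of all). Among these, UBE2M, UBE2E1, UBE2B and UBE2G1 did not keep 1 sign on all arrays of the authors' deposited table. A change of at least 1.5-fold was reached by 3 genes on the higher side (8.09% of all), UBE2L3, UBE2E1 and UBE2S, and by 2 on the lower side (4.77% of all), UBE2K and UBE2B. In a limma fit of the 6 single arrays, with dye as a term and area as a random block, 1 gene passed the adjusted threshold on the higher side (1.5% of all) and 0 on the lower side (0.962% of all). That gene was UBE2L3. Each count given with a share of all beside it was within 2 genes of that share.

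**Figure D1:**
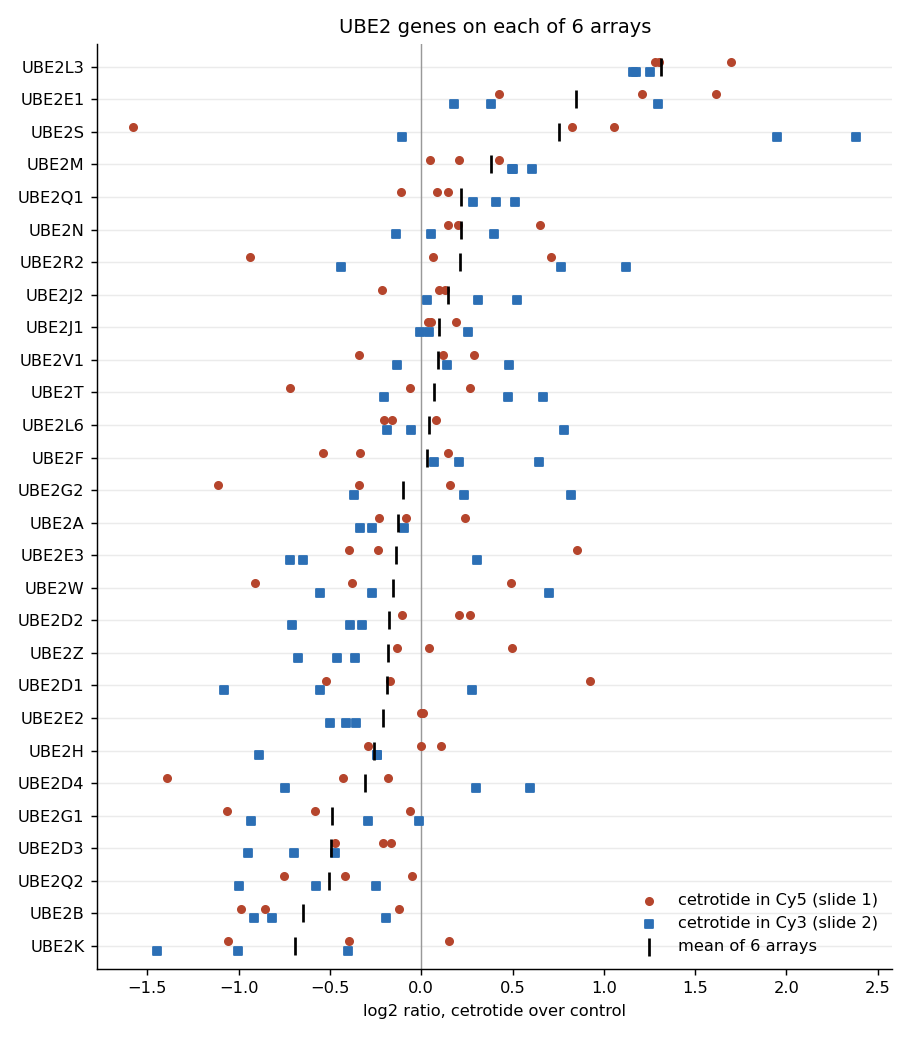
Log2 ratio of cetrotide over control (horizontal axis) for each of the 28 tested UBE2 genes (vertical axis, ordered by mean), with 1 point per array, circles for slide 1 (cetrotide in Cy5), squares for slide 2 (cetrotide in Cy3) and a black bar for the mean of the 6 arrays. All 6 points of UBE2L3 lie between 1.16 and 1.70, while those of UBE2S run from -1.58 to 2.38.

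UBE2L3, also known as UbcH7, passes ubiquitin only to cysteines and so works with HECT and RING-between-RING ligases, parkin and the linear chain assembly complex among them. Its single probe gave log2 ratios of 1.70, 1.30 and 1.28 on the slide 1 arrays and 1.25, 1.18 and 1.16 on the slide 2 arrays. All 6 arrays were above 1, and no other member was above 1 on more than 3. In the authors' deposited table UBE2L3 was above 0 on all 6 arrays, but not above 1 on all. Its ratios there were 1.84, 1.16 and 0.96 on slide 1 and 1.20, 0.92 and 0.79 on slide 2. UBE2E1 also had ratios above 1 there, at 1.46, 1.37 and 1.07. By replicate, the normalised log2 intensity was 9.53, 9.44 and 9.11 for cetrotide RNA, against 8.06, 8.20 and 7.89 for control RNA. The lowest cetrotide value lay above the highest control value. The RNAs did not overlap, in one direction or the other, in UBE2D3, UBE2B, UBE2M, UBE2E1, UBE2K, UBE2G1, UBE2Q1 and UBE2N either. How often this occurs over all genes was not counted, so the lack of overlap is not read as a result about any of these members. The replicate ratios were 1.48, 1.24 and 1.22, and the part of the mix of cell types in them was not tested. The mean log2 ratio was 1.31 ± 0.14 (SD, n = 3), a fold of 2.48, with a limma adjusted p of 0.178. This is the lowest adjusted p of any gene on the arrays, shared with others, and UBE2L3 ranked 28 of all by p. In the block fit its limma adjusted p was 0.0196. No second probe of this gene is on the arrays, so the value rests on 1 probe.

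One set by role holds the broadly acting enzymes, which serve many RING ligases: the UBE2D group (the UbcH5 enzymes), the UBE2E group with its extended amino terminus, and UBE2W, which adds ubiquitin to the amino terminus of proteins. Of its 8 measured members, 7 were below 0 and 1, UBE2E1, was above 0, and the median log2 ratio was -0.18. In replicate 2 the median was 0.013, and on slide 1 it was 0.038, against -0.39 on slide 2. The lean below 0 was therefore one of replicates 1 and 3 and of slide 2.

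UBE2D3 is named UBE2D3P on the platform, and RefSeq carries that name as a synonym of UBE2D3. Its log2 ratios were -0.21, -0.16 and -0.47 on slide 1 and -0.48, -0.70 and -0.95 on slide 2. All 6 arrays were below 0. Normalised log2 intensities by replicate were 10.92, 10.91 and 10.91 for cetrotide RNA and 11.26, 11.34 and 11.62 for control RNA, and the groups did not overlap. The mean was -0.49 ± 0.19 (SD, n = 3), with a limma adjusted p of 0.230. The UBE2D enzymes are close to identical in sequence, and whether their probes share transcripts was not tested. The other 3 had means of -0.18 ± 0.20 for UBE2D2, -0.19 ± 0.72 for UBE2D1 and -0.31 ± 0.67 for UBE2D4, each with an SD above the size of its mean.

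The 3 UBE2E genes did not share a direction. UBE2E1 had log2 ratios of 1.21, 0.42 and 1.61 on slide 1 and 0.38, 0.18 and 1.30 on slide 2. All 6 were above 0 but differed between areas, the replicates being 0.79, 0.30 and 1.46. The mean was 0.85 ± 0.58 (SD, n = 3), a fold of 1.80, with a limma adjusted p of 0.318. A second UBE2E1 probe was dim and had a ratio of 0.06 ± 0.12. UBE2E2 lay within 0.01 of 0 on the 3 arrays of slide 1 and had -0.50, -0.36 and -0.41 on slide 2. Its small SD (mean -0.21 ± 0.03, n = 3, limma adjusted p of 0.302) is over averages of both slides and leaves out that gap. UBE2E3 had replicates of -0.52, 0.58 and -0.48, with a mean of -0.14 ± 0.62. UBE2W had -0.73, -0.32 and 0.60, with a mean of -0.15 ± 0.68. In both, replicates lay on either side of 0.

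**Figure D2:**
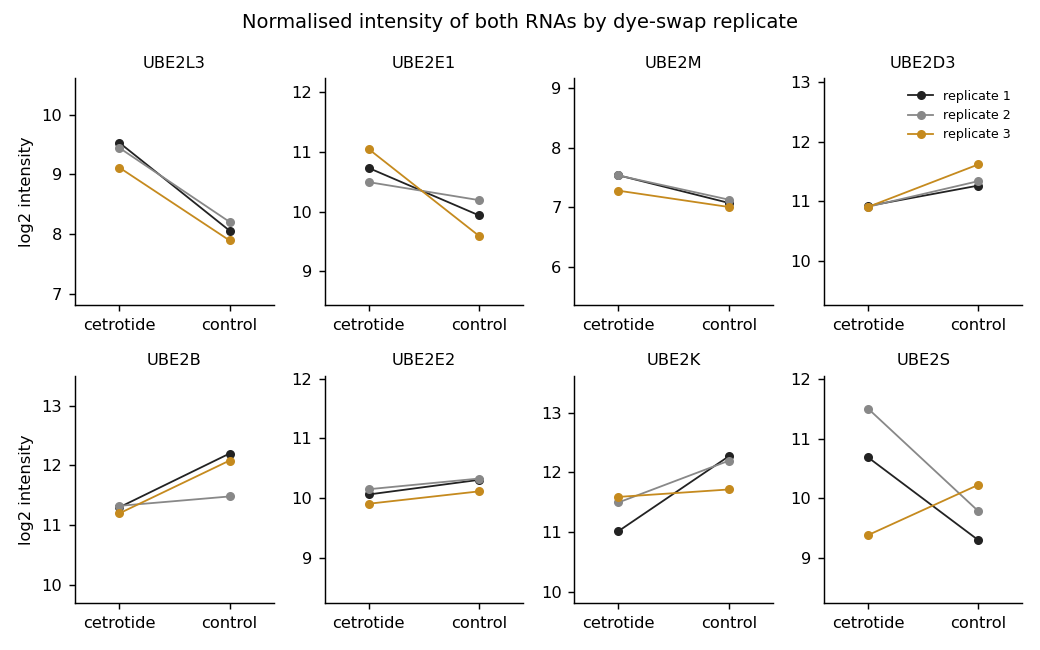
Normalised log2 intensity (vertical axis, the same span in every panel) of cetrotide RNA, left, and control RNA, right, for 8 UBE2 genes, with 1 line per dye-swap replicate. All 3 lines of UBE2L3 slope down towards control, all 3 of UBE2D3 slope up, and those of UBE2S cross, with replicate 3 at 9.38 for cetrotide and 10.23 for control RNA.

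The next set builds chains that send proteins to the proteasome or acts at the membrane of the endoplasmic reticulum. Of its 8 measured members, 4 were above and 4 below 0, with a median log2 ratio of -0.0036, and none passed an unadjusted threshold of 0.05 in limma. UBE2K, which builds degradation-linked chains and carries a ubiquitin-binding domain, had log2 ratios of -1.06, -0.40 and 0.15 on slide 1 and -1.45, -1.0 and -0.40 on slide 2. Of the 6 arrays, 5 were below 0. Its replicates of -1.25, -0.70 and -0.12 gave a mean of -0.69 ± 0.56 (SD, n = 3), with a limma adjusted p of 0.382. Without replicate 1 the mean was -0.41, above those of UBE2D3, UBE2B, UBE2G1 and UBE2Q2. Its other 2 probes had means of -0.53 ± 0.47 and -0.25 ± 0.05.

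UBE2G1, a partner of cullin ligases, had log2 ratios of -0.58, -1.07 and -0.06 on slide 1 and -0.29, -0.93 and -0.01 on slide 2. All 6 arrays were below 0, though those of area 3 were near it. The mean was -0.49 ± 0.48 (SD, n = 3), and the other 2 kept probes had means of -0.24 ± 0.27 and -0.47 ± 0.32. The endoplasmic reticulum enzymes were close to 0 or uneven. The membrane-anchored UBE2J1 and UBE2J2 had 0.09 ± 0.11 and 0.15 ± 0.22, and UBE2G2, which serves degradation at that membrane, had -0.10 ± 0.62. UBE2H, which works with the CTLH ligase complex, had -0.26 ± 0.29. UBE2R2, a close relative of CDC34 that extends chains with cullin ligases, had replicates of 0.92, 0.41 and -0.69, with a mean of 0.21 ± 0.82.

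UBE2S extends chains for the anaphase promoting complex, the ligase that drives cells out of mitosis. Its brightest probe had log2 ratios of 0.83, 1.06 and -1.58 on slide 1 and 1.95, 2.38 and -0.11 on slide 2. The replicates were 1.39, 1.72 and -0.84, and the mean of 0.75 ± 1.39 (SD, n = 3) was smaller than its SD. Without replicate 3 the mean was 1.55. Normalised log2 intensity was 10.69, 11.51 and 9.38 for cetrotide RNA and 9.30, 9.79 and 10.23 for control RNA, so the groups overlapped. Replicate 3, where UBE2S was below 0, is the one where the cell cycle genes had a median of -1.25, and the part of that in UBE2S was not tested. The other 4 probes had means of 0.58, 0.43, 0.14 and 0.11. In replicate 3, 4 of the 5 UBE2S probes were below 0 and 1 was at 0.18, the average of -0.45 on slide 1 and 0.81 on slide 2.

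The enzymes of signalling chains and DNA repair numbered 5. UBE2B, which with its close relative UBE2A serves RAD18 at stalled replication forks and the RNF20 and RNF40 ligases at histones, had log2 ratios of -0.99, -0.12 and -0.86 on slide 1 and -0.82, -0.19 and -0.92 on slide 2. All 6 were below 0, with area 2 nearest to 0 on both slides. Normalised log2 intensity was 11.29, 11.32 and 11.19 for cetrotide RNA and 12.20, 11.48 and 12.08 for control RNA. These did not overlap, as in the other members listed with UBE2L3. The mean was -0.65 ± 0.43 (SD, n = 3), a fold of 0.638, with a limma adjusted p of 0.313. UBE2A had -0.13 ± 0.18. UBE2N, which builds signalling chains together with the inactive variant UBE2V1, had 0.22 ± 0.27, and UBE2V1 had 0.09 ± 0.31. UBE2T, the E2 of the Fanconi anaemia pathway, had 0.07 ± 0.48.

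The carriers of ubiquitin-like proteins numbered 4. UBE2M, which passes NEDD8 to cullins, had log2 ratios of 0.43, 0.20 and 0.05 on slide 1 and 0.50, 0.61 and 0.50 on slide 2. All 6 were above 0. Normalised log2 intensity was 7.54, 7.54 and 7.28 for cetrotide RNA and 7.08, 7.13 and 7.01 for control RNA, without overlap, although control RNA was above background on 5 of the 6 arrays only. The mean was 0.38 ± 0.10 (SD, n = 3), a fold of 1.30, with a limma adjusted p of 0.219. UBE2F, the second NEDD8 carrier, had 0.03 ± 0.33. UBE2L6, the E2 of the interferon-induced modifier ISG15, had 0.04 ± 0.25 and was above background on 3 arrays for cetrotide RNA and 5 for control RNA. UBE2Z, which is charged by UBA6, had -0.18 ± 0.24.

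The related enzymes UBE2Q1 and UBE2Q2, less studied members of the family, lay on opposite sides of 0. UBE2Q2 was below 0 on all 6 arrays, with replicates of -0.50, -0.15 and -0.88 and a mean of -0.51 ± 0.36 (SD, n = 3, limma adjusted p of 0.351). UBE2Q1 was above 0 on 5 of 6 arrays, with a mean of 0.22 ± 0.12 (SD, n = 3, limma adjusted p of 0.376). The difference between the 2 genes was not tested. UBE3D, met by the search pattern through its old symbol, was below 0 on all 6 arrays, with a mean of -0.46 ± 0.14 (SD, n = 3) and a limma adjusted p of 0.216.

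The replicates of these genes were spread more widely than the ratios were large. The median SD over the 3 replicates was 0.320 for the UBE2 genes and 0.187 for all genes and unnamed probes, while the median absolute log2 ratio was 0.212 and 0.126 in the same order. Signal differed between these sets: 25 of 28 UBE2 genes were above background for both RNAs on all 6 arrays, against 64.7% of all. Among the 17743 of all that met this, the median SD was 0.275 and the median absolute log2 ratio 0.199. The mean was larger than its SD for 10 of the 28 genes, against 35.1% of all. The 3 replicates had the same sign above 0 in 6 genes (18.2% of all) and below 0 in 8 genes (20.4% of all). Among the other 14 genes, replicate 3 was the odd one in 7, replicate 2 in 5 and replicate 1 in 2. The SD was above 0.5 in 9 genes.

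Several genes had more than 1 probe, which gives a second reading of the same transcript but no further replicate. Of 14 genes with several probes, 10 had several above background, and in 2 of these, UBE2D4 and UBE2R2, the kept probes lay on both sides of 0, against 41.6% of all such genes. The median gap between the highest and lowest probe of a gene was 0.222, against 0.303 over all 2915 genes with several kept probes, and the largest gap was 0.644, in UBE2S. The 2 UBE2D4 probes had means of -0.31 ± 0.67 and 0.13 ± 0.54. Tested probe by probe over 31769 probes, none of 46 UBE2 probes passed the adjusted threshold in limma (0% of all). At an unadjusted threshold of 0.05, limma found 4 UBE2 probes higher (7.84% of all) and 5 lower (6.58% of all). Beyond the genes named above these were a second probe of UBE2S (0.43 ± 0.22), UBE2K (-0.25 ± 0.05) and UBE2G1 (-0.47 ± 0.32). Over the 46 probes, 21 were above 0 and 25 below, with a median of -0.02.

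**Figure D3:**
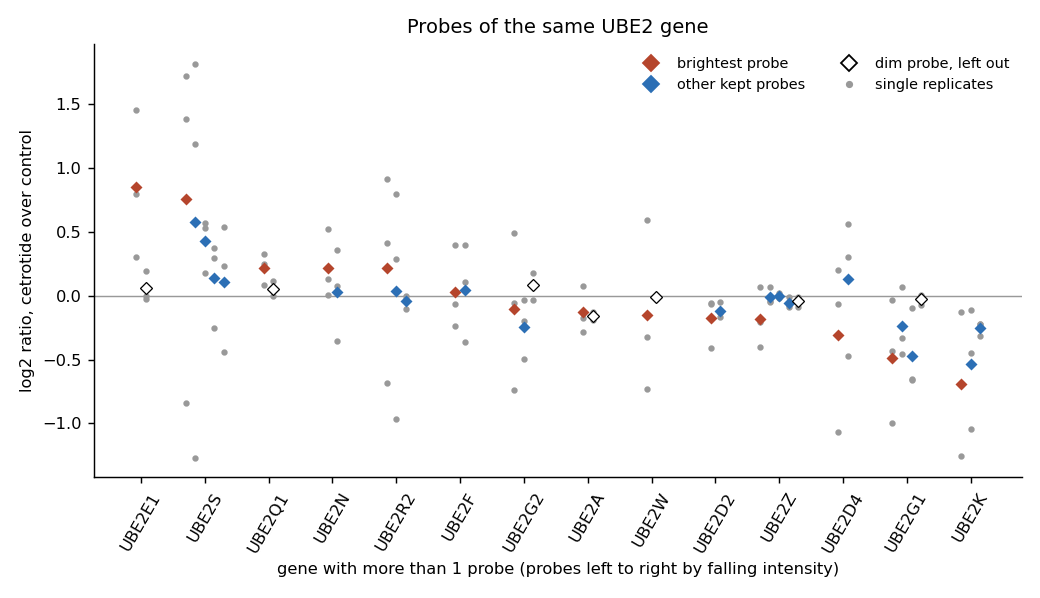
Log2 ratio of cetrotide over control (vertical axis) for every probe of the 14 UBE2 genes with more than 1 probe (horizontal axis), with diamonds for the mean of the 3 dye-swap replicates and grey points for the single replicates. Open diamonds are dim probes left out of the tests. The 3 UBE2K probes all lie below 0, from -0.69 to -0.25, and the 5 UBE2S probes all have means above 0, from 0.11 to 0.75.

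The 2 dye orientations gave different ratios for most members. The ratio with cetrotide in Cy5 and that with cetrotide in Cy3 differed at a limma adjusted threshold of 0.05 in 23 of 28 UBE2 genes, against 59% of all, and also in 23 at an unadjusted threshold of 0.05, against 63.9% of all. The ratio was higher with cetrotide in Cy5 in 13 of the 23 genes and lower in 10. The median absolute difference was 0.412, against 0.255 over all and 0.289 over those above background for both RNAs on all 6 arrays, and it exceeded the median absolute log2 ratio of the family. Each orientation was run on 1 slide, so dye and slide cannot be told apart. In the mean of both orientations a dye bias that is equal on both slides cancels, while a bias that differs between the slides does not.

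UBE2S had the largest difference, with slide means of 0.10 with cetrotide in Cy5 and 1.41 with cetrotide in Cy3. UBE2D4 had -0.67 and 0.05, and UBE2G2 -0.43 and 0.23, in the same order. UBE2Z had 0.14 and -0.50, and UBE2D2 0.12 and -0.48. The slide means of UBE2D4, UBE2G2, UBE2Z and UBE2D2 thus differed in sign, though each of these genes had a slide with arrays on either side of 0. Slide means of opposite sign occurred in 11 of 28 genes, against 48.3% of all. In 0 of 28 genes did all 3 arrays of one slide oppose all 3 of the other, against 16.8% of all. UBE2L3 had slide means of 1.43 and 1.20, and its gap of 0.23 (limma adjusted p of 0.0477) was small beside its ratio. UBE2B had -0.65 and -0.64, and UBE2J1 0.09 and 0.10.

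**Figure D4:**
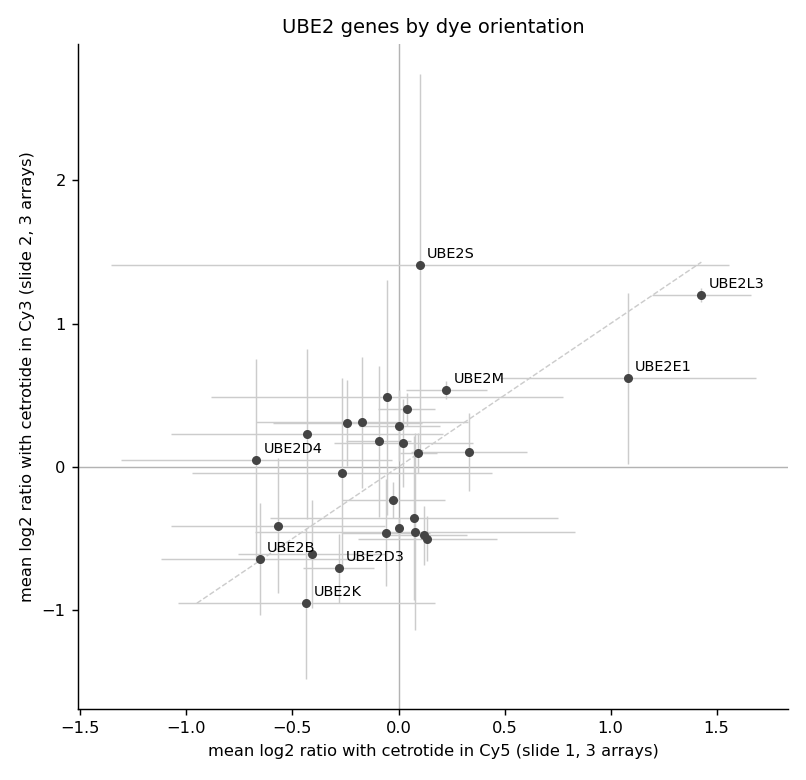
Mean log2 ratio of cetrotide over control on slide 1, with cetrotide in Cy5 (horizontal axis), against that on slide 2, with cetrotide in Cy3 (vertical axis), for the 28 UBE2 genes, with bars for the SD over the 3 arrays of a slide and a dashed line where both are equal. UBE2L3 lies near the line at 1.43 and 1.20, and UBE2S far from it at 0.10 and 1.41.

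The other genes of the relay were read from lists of 121 partners, of which 99 were measured. Of these, 41 were above 0 and 58 below, with a median log2 ratio of -0.07. At an unadjusted threshold of 0.05 limma found 8 higher, where the background is 8%, and 11 lower, where it is 6.46%. None passed the adjusted threshold, and in the block fit 0 passed on the higher side (1.5% of all) and 3 on the lower side (0.962% of all): NAE1, ATG10 and RWDD3. From each list the 2 genes with the smallest p are named below.

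Upstream of the E2s, 7 of 12 listed activating enzymes and ubiquitin genes were measured, with a median log2 ratio of -0.34, 5 of them below 0. NAE1, a subunit of the NEDD8 activating enzyme, had -0.71 ± 0.23 (SD, n = 3), with all 6 arrays below 0 and a limma adjusted p of 0.199. SAE1, a subunit of the SUMO activating enzyme, had -0.56 ± 0.24, again on all 6 arrays, while another of its probes had 0.11. Relatives of the family that carry other names had a median of -0.14 over 8 genes. ATG10, the E2-like enzyme of the ATG12 system, had -0.71 ± 0.06 with all 6 arrays below 0, and its 4 kept probes ranged from -0.87 to 0.29. CDC34, the cullin partner closest to UBE2R2, had 0.68 ± 0.39 with all 6 arrays above 0, and its other probe had 0.05.

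The ligases and cofactors that UBE2L3 can serve lay on both sides of 0. The 12 measured of 16 RING-between-RING ligases and linear chain factors had a median of 0.05, 7 above and 5 below 0, with 0 higher and 1 lower at an unadjusted threshold of 0.05. RNF14 had -0.66 ± 0.40 and ARIH2 -0.24 ± 0.12, both ligases of that class, while another ARIH2 probe had 0.23. The 19 measured of 22 HECT ligases had a median of -0.04, 8 above and 11 below 0, with 2 higher and 0 lower. HECTD2 had 0.49 ± 0.15 and WWP2 0.70 ± 0.34, each above 0 on all 6 arrays. Among 10 measured of 11 genes of degradation at the endoplasmic reticulum the median was -0.05, with 3 higher and 0 lower. STUB1, a ligase that works with chaperones, had 0.79 ± 0.42 and VCP, the ATPase that pulls substrates out of the membrane, 0.66 ± 0.38, each above 0 on all 6 arrays.

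Around UBE2M and UBE2F, 13 of 16 genes of the NEDD8 cycle were measured, with a median of -0.14, 0 higher and 2 lower. COPS5, the subunit that removes NEDD8 from cullins, had -0.56 ± 0.14, and DCUN1D5, which helps to attach it, -0.57 ± 0.14, both below 0 on all 6 arrays. A second DCUN1D5 probe had 0.02. UBE2M was thus above 0 on all 6 arrays, and NAE1, COPS5 and DCUN1D5, named for their small p, were below 0. In the authors' deposited table UBE2M was -0.06 on area 2 of slide 1. Of the NEDD8 list, 5 genes were above and 8 below 0. The SUMO list had a median of -0.04 over 12 of 16 genes, with 0 higher and 1 lower. Its lowest member was RWDD3, which promotes sumoylation, at -1.54 ± 0.11, and the SUMO protease SENP3 had 0.47 ± 0.62. Of the ISG15 list all 5 genes were measured, with a median of 0.05. TRIM25, a ligase of this system, had 0.76 ± 0.64 and ISG15 itself -0.42 ± 0.45.

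The partners of the signalling and repair enzymes had 13 of 15 genes measured, 10 below 0, with a median of -0.19, 0 higher and 3 lower at an unadjusted threshold of 0.05. FANCG, a subunit of the Fanconi anaemia ligase complex served by UBE2T, had -0.47 ± 0.13 and was below 0 on all 6 arrays. RAD18, the ligase that works with UBE2A and UBE2B, had -0.43 ± 0.19 and was below 0 on 5 arrays. RAD18 replicates were -0.51, -0.21 and -0.57, and those of UBE2B -0.90, -0.16 and -0.89. Both genes had their value nearest to 0 in replicate 2, but so did UBE2Q2, UBE2E1 and SAE1. UBE2A, the other partner of RAD18, had its value farthest from 0 there, with replicates of -0.18, -0.29 and 0.07. No test of the 2 together was made.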

How the data were processed

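Spot intensities were measured in 6 two-colour arrays. Per the labels' protocols, total RNA was amplified over a pair of T7 polymerase rounds and labelled chemically, which can add spread and dye bias that differs by gene. Scanner tables, as deposited, hold mean and median pixel intensities of spot and local background, uncorrected per the file headers. The table of log2 ratios that the authors deposited served as an alternative; its column medians ran from -0.00191 to 0.00748, it ran cetrotide over control, and its scale was taken as log2; how it was centred and normalized stays unknown.

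In limma 3.58.1 (R 4.3.3), mean intensities were corrected with normexp (offset 50) on the median background and normalized within arrays by loess, control spots at weight 0. The ratios had no normalization between arrays. The normalised intensities of each RNA and the summed marker intensities were taken after quantile normalization between arrays of the mean log2 intensity of both dyes. A probe was kept if above the 95th percentile of 153 negative controls for one RNA on at least 4 of 6 arrays (31769 of 43794). No UBE2 probe neared saturation. The brightest kept probe stood for a gene. Symbols came from the platform table and were updated through RefSeq (ARS-UCD2.0).

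Same-area arrays were averaged, since array deviations correlated at 0.900, 0.934 and 0.954 across genes for same-area arrays and from -0.706 to -0.00759 for others. Limma (intercept, eBayes) tested 3 averages against 0, adjusted by Benjamini-Hochberg over 27429 genes and unnamed probes. The block fit used a consensus correlation of 0.852. Whether replicates are separate cows is not stated, so the p-values cover the spread among these samples alone, which may be technical. The number of arrays limits the precision.

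The members and all lists were chosen with earlier results of these data known. By rule, every UBE2 gene is named, with array values for UBE2L3, the 6 smallest p, and genes of 1 sign on 6 arrays and at least 1.5-fold; those of UBE2G1, UBE2K and UBE2S were added after their values were seen. Alternatives were background, pixels, normalization, filter, probe rule, the authors' table, block, single slides and each replicate left out. Some items are not reported here.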

Additional observations from a re-analysis of the deposited data

Results flagged for a closer look

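The ratio of cetrotide over control differed between the dye orientations in 23 UBE2 genes, by limma's test at an adjusted threshold of 0.05. Over all genes and unnamed probes the share was 59%. Each value is the log2 ratio with cetrotide in Cy5 (slide 1) minus that with cetrotide in Cy3 (slide 2). Above 0 were UBE2Z (0.64), UBE2D2 (0.60), UBE2D1 (0.53), UBE2K (0.52), UBE2E1 (0.46), UBE2E2 (0.43), UBE2D3 (0.43), UBE2E3 (0.43), UBE2H (0.40), UBE2L3 (0.23), UBE2N (0.23), UBE2A (0.21) and UBE2Q2 (0.20). Below 0 were UBE2S (-1.31), UBE2D4 (-0.72), UBE2G2 (-0.66), UBE2F (-0.55), UBE2R2 (-0.54), UBE2T (-0.48), UBE2Q1 (-0.36), UBE2M (-0.31), UBE2J2 (-0.29) and UBE2W (-0.23). Dye and slide cannot be told apart.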

How the results depend on the processing

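Across 16 alternatives, 15 of 28 UBE2 genes kept their sign in every one run, and 26 of 445 values changed sign. The log2 ratio of UBE2L3 ran from 1.14 to 1.44. Its limma adjusted p was below 0.05 in the fit with the replicate block (0.0196), without it (0.00292) and on slide 2 alone (0.0409). Limma passed 0 UBE2 genes under the 13 other alternatives. With the replicate block it passed 1 UBE2 gene, 1 UBE2 probe, and 411 genes higher and 264 lower over all. With all 6 arrays, a dye term and no replicate block it passed 2 UBE2 genes higher (UBE2L3, UBE2M) and 2 lower (UBE2D3, UBE2E2), and 1806 higher and 1458 lower over all. That fit counts same-area arrays as independent. On slide 2 alone it passed 1 UBE2 gene, and 662 higher and 225 lower over all. At an unadjusted 0.05 the UBE2 counts ran from 1 to 5 higher and 1 to 7 lower, with no share over all given for these. The UBE2 median was -0.011 on slide 1 alone, 0.073 on slide 2 alone, and from -0.065 to 0.015 with 1 replicate left out. UBE2E2 was 0.0032 on slide 1 alone. The dye orientation difference passed in 17 to 23 UBE2 genes under its alternatives. The share over all was 59% in the main fit and is not given for these alternatives. The causes were not tested. Low signal limits UBE2O, UBE2L6, UBE2M and UBE2Q1.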
